A study of Homo sapiens with 22 samples.

Results

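The 529 H3K4me3 sites described here were bivalent in A673 and not in CHLA10: they carried H3K27me3 together with H3K4me3 in A673, and H3K4me3 without H3K27me3 in CHLA10. Each site was a peak of A673 H3K4me3 replicate 1 on chromosomes 1 to 22 that overlapped, by at least 1 bp, a peak in the 3 other H3K4me3 lists and in both A673 H3K27me3 lists, and no peak in either CHLA10 H3K27me3 list. Of 17290 such peaks, 13779 were found in all 4 H3K4me3 lists, and the 529 sites were 3.84% of those. The opposite pattern, with H3K27me3 in each CHLA10 list and no A673 list, was found at 48 sites (0.348%). A further 383 sites had H3K27me3 in all 4 libraries and 12217 had it in none. The sites were chosen by their H3K4me3 and H3K27me3 calls, so the values of these marks below are a description and are not tested. The question asked of the sites was whether they had H3K27ac in CHLA10.

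A673 and CHLA10 are established human cell lines of Ewing sarcoma, a tumour of bone and soft tissue driven by the EWS-FLI1 fusion protein, and the series places EWS-FLI1 and the homeobox factor HOXD13 in the control of tumour cell plasticity. The assay was automated CUT&RUN, in which an antibody directs a nuclease to chromatin and the released fragments are sequenced. H3K4me3, H3K27me3, H3K27ac and H3K4me1 were each profiled in 2 libraries per line, in A673 and CHLA10 cells that all carried the label shNS and were grown in RPMI (A673) or IMDM (CHLA10) medium, with antibodies diluted 1 to 100 or, for H3K27ac, 1 to 50. HOXD13 was profiled in 1 library per line (1 to 20) in cells without that label, and 4 IgG libraries (1 to 50) had no peak list and were not used. The labels do not say whether the 2 replicates were separate cultures, so the spread between them may be technical. With 2 libraries against 2, an exact permutation test cannot give a two-sided p below 0.33, and no p-value was computed between the lines.

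H3K27me3 is laid down by Polycomb repressive complex 2 and is found over silent developmental genes. H3K4me3 is deposited by SET1 and MLL complexes at promoters, mostly at CpG islands. Promoters that carry both are called bivalent and are known from embryonic stem cells, where many belong to developmental regulators, while H3K27ac sits on the same lysine as H3K27me3, so that a single histone tail cannot hold both, and marks active promoters and enhancers. Here the marks were read in separate libraries of a cell population, so whether they sat on the same allele or in the same cell was not measured.

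The promoters of 6 genes at the sites are printed beside the patterns described below. Each window runs from 250 bases before to 50 bases after the annotated start, is written 5′ to 3′ on the strand of the gene, and comes from RefSeq (GRCh38.p14). Capitals mark CG dinucleotides, the sequence feature of CpG islands. ZNF608 (chr5:124748775-124749074, minus strand) and DPY19L2 (chr12:63668444-63668743, minus strand) are shown because these were the windows under H3K27me3 in both A673 libraries and under H3K27ac in both CHLA10 libraries. MEIS2 (chr15:37099057-37099356, minus strand) is shown because its window had H3K27ac in 1 CHLA10 library while the H3K27me3 lay elsewhere in the site. SOX2 (chr3:181711675-181711974, plus strand) is shown because its site was acetylated in A673. The H3K27ac lay elsewhere in that site: the window had none in any library, and was under H3K27me3 in A673 replicate 1 only. HOXA13 (chr7:27200042-27200341, minus strand) and NKX2-1 (chr14:36520183-36520482, minus strand) are shown because their windows were under H3K27me3 in both A673 libraries and had no H3K27ac in any library.
ZNF608: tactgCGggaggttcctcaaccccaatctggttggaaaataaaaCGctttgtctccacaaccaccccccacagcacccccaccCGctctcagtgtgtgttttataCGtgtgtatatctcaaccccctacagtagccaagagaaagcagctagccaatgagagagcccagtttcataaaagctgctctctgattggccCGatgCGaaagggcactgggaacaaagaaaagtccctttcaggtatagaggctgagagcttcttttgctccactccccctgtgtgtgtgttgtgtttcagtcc
DPY19L2: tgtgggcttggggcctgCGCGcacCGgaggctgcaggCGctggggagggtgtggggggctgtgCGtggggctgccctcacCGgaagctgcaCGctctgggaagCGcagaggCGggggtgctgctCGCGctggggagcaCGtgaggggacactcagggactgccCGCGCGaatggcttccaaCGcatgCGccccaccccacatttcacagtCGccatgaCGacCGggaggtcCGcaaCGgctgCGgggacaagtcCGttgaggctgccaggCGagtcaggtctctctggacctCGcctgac
MEIS2: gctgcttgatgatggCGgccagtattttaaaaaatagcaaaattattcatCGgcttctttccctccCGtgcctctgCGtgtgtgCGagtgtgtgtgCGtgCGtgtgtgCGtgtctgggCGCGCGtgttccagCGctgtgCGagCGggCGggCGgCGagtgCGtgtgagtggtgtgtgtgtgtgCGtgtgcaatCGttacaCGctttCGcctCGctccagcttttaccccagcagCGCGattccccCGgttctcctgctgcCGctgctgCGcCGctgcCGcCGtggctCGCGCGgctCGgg
SOX2: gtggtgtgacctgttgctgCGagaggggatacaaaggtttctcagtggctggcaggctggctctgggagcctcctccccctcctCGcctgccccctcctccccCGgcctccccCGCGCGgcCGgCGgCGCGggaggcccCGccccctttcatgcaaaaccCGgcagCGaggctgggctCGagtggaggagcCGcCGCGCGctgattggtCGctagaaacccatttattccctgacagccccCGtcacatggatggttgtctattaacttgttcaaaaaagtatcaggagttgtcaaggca
HOXA13: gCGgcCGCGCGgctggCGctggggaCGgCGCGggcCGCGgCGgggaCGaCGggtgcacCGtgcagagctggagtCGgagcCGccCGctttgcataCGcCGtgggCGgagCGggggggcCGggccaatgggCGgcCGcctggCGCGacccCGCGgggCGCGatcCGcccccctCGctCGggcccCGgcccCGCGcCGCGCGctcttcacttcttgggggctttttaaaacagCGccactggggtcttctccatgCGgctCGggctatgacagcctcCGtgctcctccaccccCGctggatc
NKX2-1: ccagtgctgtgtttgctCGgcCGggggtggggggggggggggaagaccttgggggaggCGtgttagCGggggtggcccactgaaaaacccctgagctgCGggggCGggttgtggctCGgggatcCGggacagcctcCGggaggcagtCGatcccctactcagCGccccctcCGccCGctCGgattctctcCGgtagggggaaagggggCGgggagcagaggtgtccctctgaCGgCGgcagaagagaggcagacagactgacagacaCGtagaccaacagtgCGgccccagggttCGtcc
The ZNF608 window held 6 CG dinucleotides, and the DPY19L2 window held 26. The MEIS2 window held 35, that of SOX2 20, that of HOXA13 44 and that of NKX2-1 21. Thus the windows of ZNF608 and DPY19L2, which had the same marks, differed in CG content.

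The CG content of the promoters was close to that at other H3K4me3 sites. The RefSeq table held 289 promoters with a start inside a site. Of these, 265 belonged to the 389 genes with a boundary within 1 kb of a site, and 24 had a start inside the boundaries of a longer gene. The 289 windows held a median of 29 CG dinucleotides (25th to 75th percentile 21 to 36) and had a median GC content of 69.3%. The median was 29 at sites bivalent in both lines (GC 69.5%, 192 windows), 28 at sites without H3K27me3 (GC 66.0%, 8417 windows) and 22 over all 15101 promoters of the table (GC 63.0%). The 10 windows at sites with H3K27ac in CHLA10 only had a median of 28.5. The letters GGAAGGAA, 2 units of the GGAA repeat that EWS-FLI1 is known to bind, were found on either strand in 7 of the 289 windows (2.42%), in 3.21% of promoters at all H3K4me3 sites and in 3.52% of all promoters. The letters CAATAAA, a core of the motif of posterior HOX proteins, were found in 1 window (0.346%), in 1.98% of promoters at all H3K4me3 sites and in 2.84% of all promoters. The share of GGAAGGAA was close to the others, and that of CAATAAA rests on 1 window.

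Most textbook markers of Ewing sarcoma carried H3K4me3. Of 18 Ewing sarcoma markers, 16 lie on the chromosomes used, and 15 of these had H3K4me3 at a gene boundary in all 4 libraries, beside 62.2% of all protein-coding genes (11893 of 19126). FLI1 had it in none, NKX2-2 also had H3K27me3 in both CHLA10 libraries, and NPY5R had H3K27me3 in 1 A673 library. Of 13 markers of blood, endothelium, epithelium, muscle and liver, 9 had H3K4me3 in no library, while KDR had it in all 4, EPCAM in both CHLA10, MYOD1 in both A673 and CDH1 in 1 library of each line. KRT8, without H3K4me3, had H3K27ac in all 4 libraries. On chromosomes 1 to 22 the H3K4me3 lists held 17290 to 20633 peaks, the H3K27me3 lists 27788 to 40935 and the H3K27ac lists 23617 (CHLA10 replicate 2) to 46412 (A673 replicate 2). The lists give peaks without read counts, so depth is unknown and an absent peak does not show that a mark is absent.

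H3K27ac was rare at the sites in both lines, and was found at more of them in CHLA10. In A673, 18 sites (3.40%) had an H3K27ac peak in replicate 1 and 22 (4.16%) in replicate 2. In CHLA10, 53 sites (10.0%) had one in replicate 1 and 33 (6.24%) in replicate 2. Both CHLA10 libraries lay above both A673 libraries. The mean was 3.78% ± 0.535 (SD, n = 2 libraries) in A673 and 8.13% ± 2.67 (SD, n = 2) in CHLA10, a difference of 4.35 percentage points and a ratio of 2.15. The ratio was close to that of H3K4me3 sites in general. Over all 13779 sites the shares were 16.8% and 18.8% in A673 and 41.8% and 28.4% in CHLA10, a ratio of means of 1.97. Sites without H3K27me3 gave 19.6% ± 1.42 in A673 and 39.0% ± 10.5 in CHLA10 (SD, n = 2 each), a ratio of 1.99. The level itself differed: in CHLA10, where neither class had H3K27me3, H3K27ac was found at 8.13% of the sites that had H3K27me3 in A673 and at 39.0% of those that did not.

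**Figure D1:**
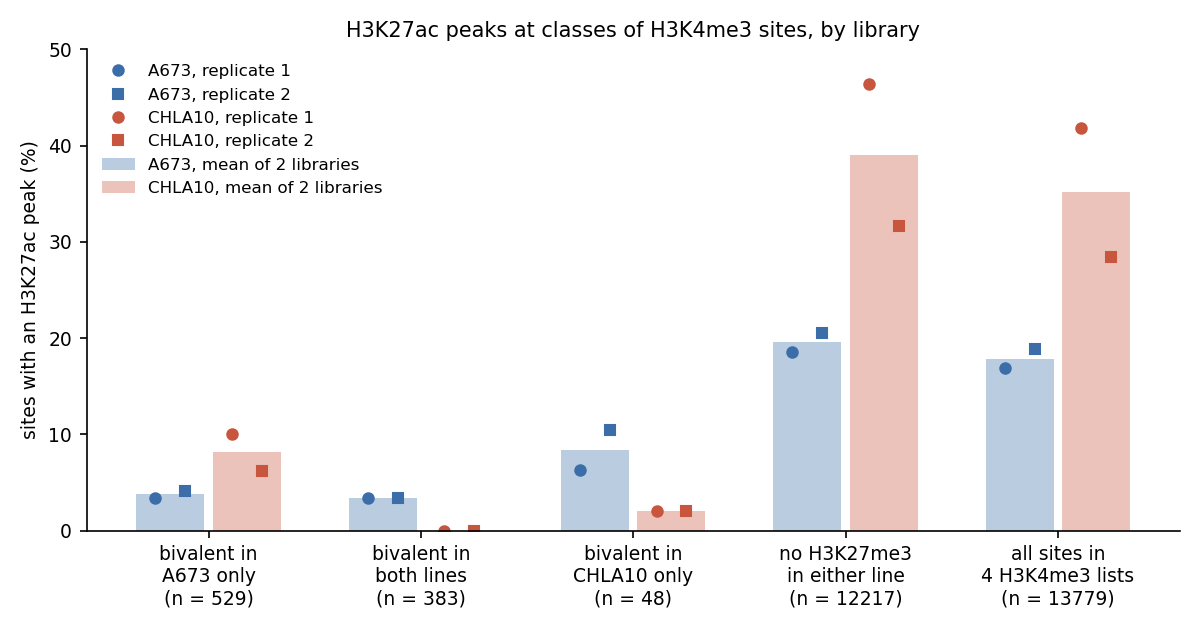
Share of H3K4me3 sites with an H3K27ac peak (%) in each class of sites. Bars are the mean of 2 libraries, circles replicate 1 and squares replicate 2, in blue for A673 and red for CHLA10; at the 529 sites CHLA10 reached 10.0% and 6.24%, at sites bivalent in both lines 0 of 383.

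Where H3K27me3 was present in CHLA10, few or no sites had H3K27ac there. None of the 383 sites bivalent in both lines had H3K27ac in either CHLA10 library, which allows a share of up to 0.783%. In A673, 13 (3.39%) had it in replicate 1 and 13 in replicate 2, with 4 sites in both. At the 48 sites bivalent in CHLA10 only, 1 site (2.08%) had H3K27ac in CHLA10 replicate 1 and a different one in replicate 2. In A673, 3 (6.25%) and 5 (10.4%) had it. In the same way, 3.78% of the 529 sites had H3K27ac in A673, the line in which they had H3K27me3.

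H3K27ac gain, a peak in each CHLA10 list and no peak in an A673 list, was found at 16 of the 529 sites (3.02%, exact Clopper-Pearson 95% interval 1.74 to 4.87, which covers counting error only). The same gain was found at 11.9% of all H3K4me3 sites, at 13.2% of those without H3K27me3 (1610 of 12217), and at 0 of 383 and 0 of 48 sites of the other bivalent classes. The share at the sites thus lay below the background. The reverse, H3K27ac in both A673 libraries and in neither CHLA10 library, was found at 3 sites (0.567%), where all sites gave 1.55%. H3K27ac was called in all 4 libraries at 1 site and in no library at 443 (83.7%), against 94.3% of sites bivalent in both lines and 41.3% of sites without H3K27me3. A peak in at least 1 CHLA10 library and in no A673 library was found at 51 sites (9.64%), against 26.7% of all sites. The count of gain rested on both CHLA10 libraries: without replicate 1 it was 26, and without replicate 2 it was 41. No share over all sites is given for these counts.

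Part of the H3K27ac calls at the sites repeated between libraries. In CHLA10, 22 sites had H3K27ac in both replicates, 41.5% of those in replicate 1 and 66.7% of those in replicate 2. Over all H3K4me3 sites these shares were 58.7% and 86.3%. In A673, 5 sites had it in both replicates, 27.8% and 22.7% of those called, against 52.8% and 47.3% over all sites and 30.8% in each replicate at sites bivalent in both lines. The peaks were also of lower rank in their lists. A percentile of 100 is the peak with the highest −log10 q of its list, and these and all fold enrichments below are the authors' values. The median percentile was 43.6 at the 53 sites of CHLA10 replicate 1 and 53.1 at the 33 sites of replicate 2, against 64.2 and 59.4 at sites without H3K27me3. H3K27ac peaks covered a median of 16.6% and 20.5% of the length of these sites, and up to 78.4% and 85.5%.

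Of the 16 sites with gain, 13 lay within 1 kb of a boundary of a protein-coding gene, and 15 genes were at them. Transcription factor genes and cofactors among them were MEIS2, a TALE homeodomain partner of HOX proteins, TBX3, a T-box factor of limb and mammary development, PYGO1, a PHD finger coactivator of WNT signalling, and the zinc finger genes ZNF608 and ZNF804A. FOXA3, a forkhead factor of endoderm, shared its site with SYMPK, a scaffold of mRNA 3′ end processing. The others were SLC12A2, a sodium, potassium and chloride cotransporter, IGFBP7, a secreted binding protein of insulin-like growth factors, SH3D19, an adaptor protein, BTBD3, a regulator of dendrite growth, and DPY19L2, a gene of sperm head formation. PURG, a purine-rich element binding protein, shared its site with WRN, a DNA helicase gene. DCAF5, a substrate receptor of a ubiquitin ligase, ranked last and is named after its values were seen. The 3 sites without such a boundary lay inside PROX1, a homeobox gene of lymphatic development (3.72 kb from the boundary), inside EYA1, a transcriptional coactivator (164 kb from it), and 5.43 kb from GYPE, a glycophorin gene.

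**Figure D2:**
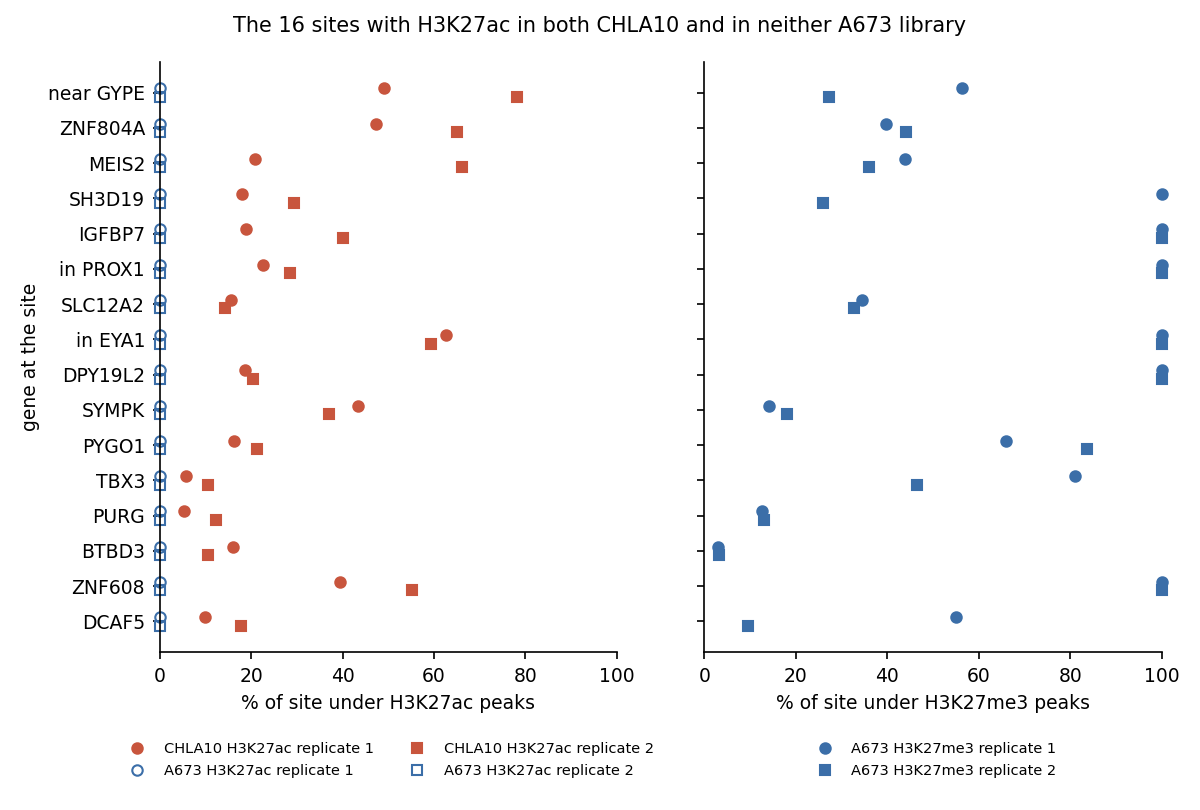
The 16 sites with H3K27ac in both CHLA10 and in neither A673 library. Left, percent of the site under H3K27ac peaks in each library (red CHLA10, open blue A673, all at 0); right, percent of the site under A673 H3K27me3 peaks. Rows are ordered by the lower of the 2 CHLA10 percentiles, highest at the top; coverage in CHLA10 ran from 5.44% to 62.6% in replicate 1 and from 10.5% to 78.1% in replicate 2.

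ZNF608, with EYA1 and DPY19L2, showed H3K27ac in CHLA10 on the bases that had H3K27me3 in A673. Its site (chromosome 5, 124745296 to 124749521, 4226 bp, hg38) lay wholly under H3K27me3 in both A673 libraries, with fold enrichments of 4.15 and 4.46. H3K27ac covered 39.4% of it in CHLA10 replicate 1 and 55.2% in replicate 2, with fold enrichments of 8.48 and 2.60, and none of it in A673. The value of 2.60 was the lowest of the 16 sites in replicate 2. The 2 CHLA10 libraries shared 1464 acetylated bp, all of them under H3K27me3 in both A673 libraries. The site inside EYA1 shared 705 of its 1186 bp, a larger part of its length, and these too lay wholly under A673 H3K27me3. The promoter window printed above was 30% covered by H3K27ac in CHLA10 replicate 1 and wholly covered in replicate 2. The nearest CHLA10 H3K27me3 peak was 297 kb away. H3K4me3 was called there at fold enrichments of 13.4 and 60.9 in A673 and of 16.1 and 13.0 in CHLA10, so the A673 replicates differed most.

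DPY19L2 (chromosome 12, 63667143 to 63669625) had the same arrangement on a smaller stretch. H3K27me3 covered the whole site in both A673 libraries (fold enrichments 6.05 and 6.03). H3K27ac covered 18.6% and 20.3% of it in CHLA10 (fold enrichments 5.58 and 6.94), with 462 bp in common. Its printed window was wholly under A673 H3K27me3 and 17.0% and 31.0% under CHLA10 H3K27ac. DPY19L2 has near-identical pseudogene copies in the genome, and how reads that match several copies were assigned is not given in the sources used here, so its values are uncertain. Among the 289 promoter windows, 182 were under H3K27me3 in both A673 libraries, and those of ZNF608 and DPY19L2 were the 2 of them with H3K27ac in both CHLA10 libraries.

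At other sites with gain, the overlap of CHLA10 H3K27ac with A673 H3K27me3 was partial, absent or differed between the A673 libraries. The CHLA10 libraries shared acetylated bases at 15 of the 16 sites. At 5 of these sites, all shared bases were under H3K27me3 in both A673 libraries: ZNF608, DPY19L2, IGFBP7 and the sites inside PROX1 and EYA1. At 3 sites (ZNF804A, MEIS2 and SLC12A2) some of them were, and at 7 sites none were under it in both. At SH3D19 and TBX3, which are among the 7, no shared base was free of H3K27me3 in both A673 libraries either. The A673 libraries thus disagreed there. At PYGO1, 163 of 514 shared bp were under H3K27me3 in neither A673 library. At SYMPK, PURG and BTBD3, the shared acetylated bases lay wholly outside A673 H3K27me3. BTBD3 had the least overlap, with 2.92% of its site under H3K27me3 in the A673 library with the lower value. A site could therefore pass the rule at its edge while its acetylated part had no H3K27me3 peak in A673.

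MEIS2 had the longest site with gain (chromosome 15, 37097995 to 37103888, 5894 bp). H3K27ac covered 20.8% of it in CHLA10 replicate 1 and 66.2% in replicate 2 (fold enrichments 8.61 and 8.18). Of 755 bp acetylated in both CHLA10 libraries, 477 were under H3K27me3 in both A673 libraries and 278 in neither. The promoter window had no A673 H3K27me3 and was wholly under H3K27ac in CHLA10 replicate 2 and free of it in replicate 1. The site nearest GYPE (chromosome 4, 143910987 to 143912574), which overlaps the boundary of the non-coding gene LOC101927636, had the highest rank. Its H3K27ac peaks had fold enrichments of 13.3 and 13.0 and lay at percentiles 96.0 and 95.5 of the CHLA10 lists. None of its 779 shared acetylated bp was under H3K27me3 in both A673 libraries.

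ZNF804A followed in rank (chromosome 2, 184597105 to 184599918). H3K27ac covered 47.3% and 65.0% of it in CHLA10, and 1077 of the 1081 shared bp were under H3K27me3 in both A673 libraries. Its nearest CHLA10 H3K27me3 peak was 2904 kb away. At TBX3 (chromosome 12, 114680593 to 114685451), H3K27ac covered 5.76% and 10.6% of the site, and a CHLA10 H3K27me3 peak began 3.84 kb away. TBX3 was the site with gain nearest to CHLA10 H3K27me3. DCAF5 had H3K27ac in both CHLA10 libraries, at percentiles 6.41 and 65.5, but at no common base.

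The sites acetylated in A673 included SOX2, a transcription factor of stem and neural progenitor cells that is also on the list of EWS-FLI1 activated genes. Its site (chromosome 3, 181709591 to 181718006) was the second widest at 8416 bp. H3K27ac covered 5.06% and 11.8% of it in A673 (fold enrichments 8.99 and 7.41) and none in CHLA10, and H3K4me1 was called in both A673 libraries (fold enrichments 11.7 and 10.8) and in neither CHLA10 library. A673 H3K27me3 covered 17.4% of the site in the library with the lower value, and CHLA10 H3K27me3 began 10.3 kb away. CALY, a vesicle protein gene of neurons, and FRMD4A, a FERM domain gene, were the others. The FRMD4A site (chromosome 10, 14007454 to 14010657) lay inside the gene, 320 kb from its outer boundary, and held its annotated start in the RefSeq promoter table, with no H3K27ac over that promoter window. Their H3K27ac fold enrichments were 4.76 and 9.06 at CALY and 9.52 and 14.2 at the FRMD4A site. RALGPS2, a guanine nucleotide exchange factor gene, was the site with H3K27ac in all 4 libraries (fold enrichments 5.82 and 3.88 in A673, 8.76 and 3.94 in CHLA10).

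H3K27ac was more frequent at longer sites. The sites ran from 188 to 9023 bp, with a median of 1795 bp, against 1750 bp for sites bivalent in both lines and 2321 bp for sites without H3K27me3. In the 177 shortest sites (188 to 1364 bp), 9 (5.08%) had H3K27ac in at least 1 CHLA10 library. The share was 14 of 176 (7.95%) at 1367 to 2208 bp and 41 of 176 (23.3%) at 2210 to 9023 bp. Sites without H3K27me3, split at about the same lengths, gave 27.2%, 41.1% and 63.6%. Their outer groups were open, from 183 bp and up to 17017 bp, so the lengths were not fully matched. The share was thus lower at the sites bivalent in A673 in each length group. Each of the 5 widest sites, LRFN5, SOX2, a site 39.3 kb from MEF2C, POU3F2 and NR2F1, had H3K27ac in at least 1 library, and each of the 5 narrowest had none.

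**Figure D3:**
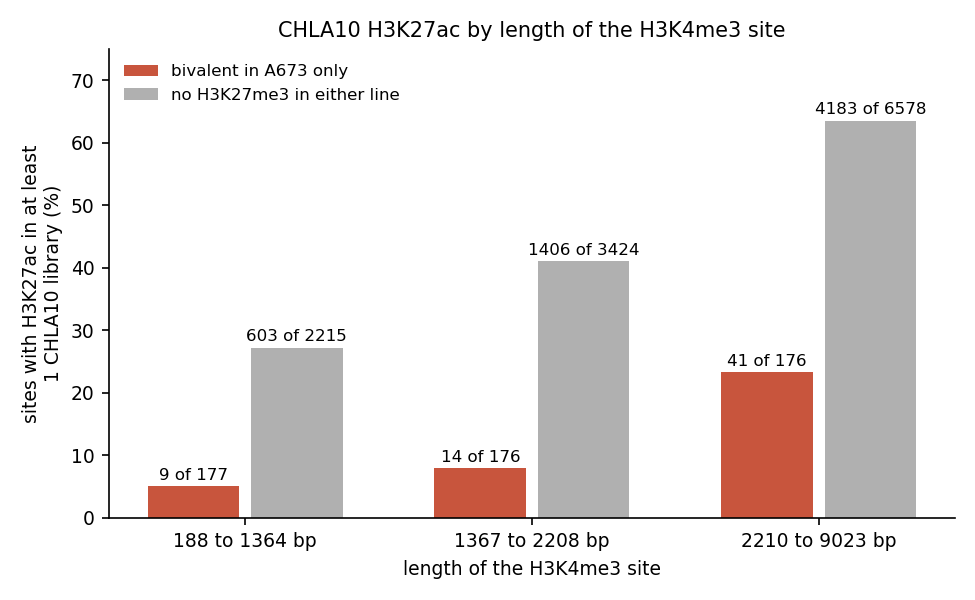
Share of sites with H3K27ac in at least 1 CHLA10 library (%) by length of the H3K4me3 site. Red, the 529 sites in 3 length groups. Grey, sites without H3K27me3 in either line, split at about the same lengths with open outer groups (183 to 17017 bp in all). The share rose with length in both, from 5.08% to 23.3% and from 27.2% to 63.6%.

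Sites with gain were also long in the other H3K4me3 lists. Their median H3K4me3 peak lengths were 3079 and 2904 bp in A673 and 3428 and 3692 bp in CHLA10 (16 sites). At the 443 sites without H3K27ac the medians were 1686 and 1575 bp in A673 and 1580 and 1639 bp in CHLA10. H3K4me3 was longer in both CHLA10 than in both A673 libraries at 8 of the 16 sites with gain and at 150 of those 443 (33.9%). It was shorter at 3 and at 146 (33.0%). Over all 529 sites, H3K4me3 was longer in both CHLA10 libraries at 188 (35.5%) and shorter at 166 (31.4%). The site nearest GYPE went from 1588 and 1747 bp in A673 to 4701 and 4005 bp in CHLA10, and the site inside EYA1 from 1186 and 1108 bp to 4750 and 4849 bp.

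H3K27me3 in A673 covered most of the sites and reached beyond them. The H3K27me3 peaks at the sites had median lengths of 6.18 kb in replicate 1 and 8.35 kb in replicate 2, and median fold enrichments of 4.74 and 4.49. At sites bivalent in both lines the lengths were 9.40 and 12.2 kb and the fold enrichments 5.49 and 5.36. Of the 529 sites, 254 (48.0%) lay wholly under H3K27me3 in both A673 libraries, and 149 (28.2%) were under 50% covered in at least 1 of them. Gain was found at 5 of the 254, at 1 of the 126 covered by 50% or more but not wholly, and at 10 of the 149 (6.71%). In these 3 groups, 9.84%, 10.3% and 17.4% had H3K27ac in at least 1 CHLA10 library. Site length was not matched between the groups, and H3K27ac was more frequent at longer sites.

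In CHLA10 the nearest H3K27me3 peak was at a median distance of 92.8 kb (25th to 75th percentile 8.21 to 364 kb). It lay within 1 kb of 68 sites (12.9%), within 5 kb of 114 (21.6%) and within 50 kb of 223 (42.2%). H3K27ac in at least 1 CHLA10 library was found at 4 of the 114 sites within 5 kb (3.51%), at 12 of 109 between 5 and 50 kb (11.01%) and at 48 of 306 beyond 50 kb (15.7%). Of the sites with gain, 15 lay beyond 50 kb. Just inside the rule, SYT17 lay 6 bp from CHLA10 H3K27me3, and the H3K27me3 of an A673 library overlapped TTC23L by 14 bp. Just outside it, GALNT16 overlapped CHLA10 H3K27me3 by 6 bp, and a site on chromosome 6 lay 10 bp from the A673 H3K27me3 of 1 library.

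**Figure D4:**
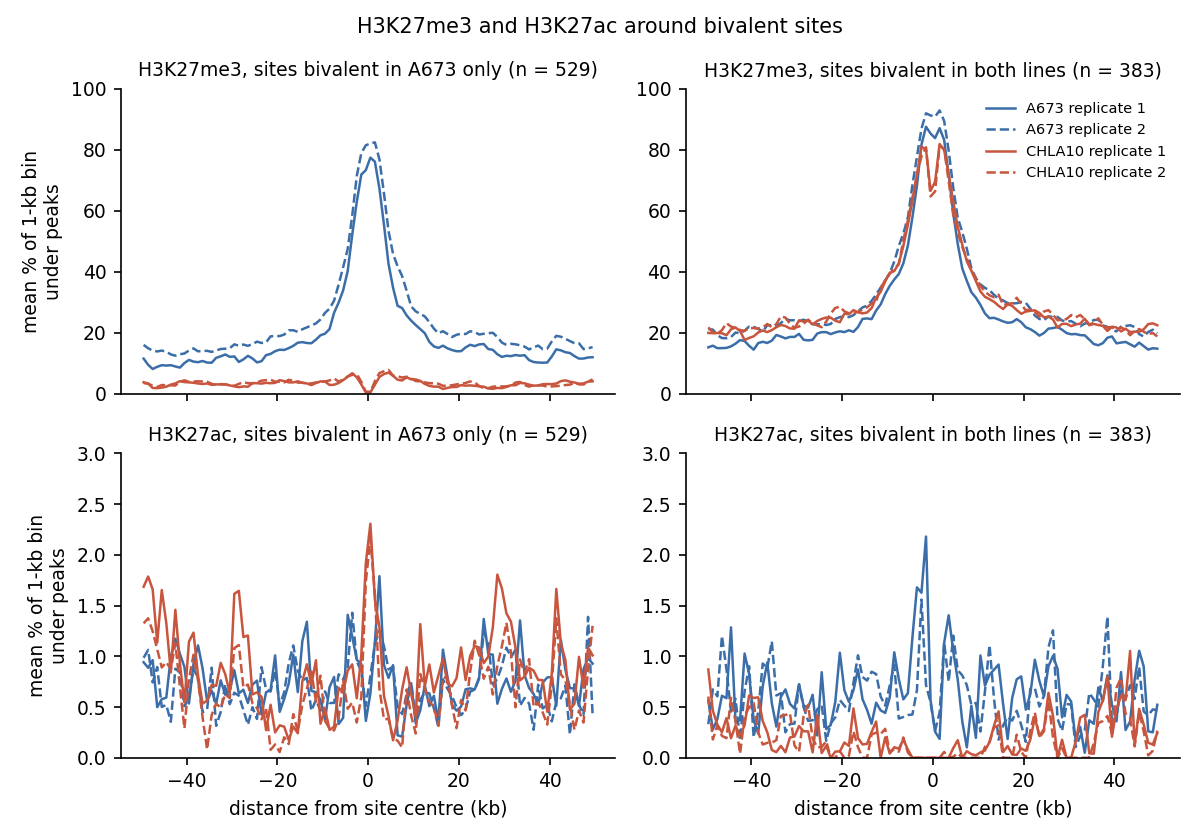
Mean percent of each 1-kb bin under H3K27me3 (top) and H3K27ac (bottom) peaks, against distance from the site centre (kb). Left, the 529 sites; right, the 383 sites bivalent in both lines; blue A673, red CHLA10, solid replicate 1 and dashed replicate 2. H3K27me3 within 1 kb of the centre was fixed by the rule; CHLA10 H3K27ac within 1 kb of the centre averaged 2.11% and 1.95% at the 529 sites, with some bins far from the centre nearly as high in replicate 1, and 0 at the 383 sites.

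The distribution around the sites showed the same in bases. Within 1 kb of the centre of the 529 sites, CHLA10 H3K27ac peaks covered 2.11% of bases in replicate 1 and 1.95% in replicate 2, above the 0.999% and 0.742% at 20 to 50 kb. A673 H3K27ac covered 0.499% and 0.659% there, against 0.774% and 0.664% at 20 to 50 kb, so that it did not rise towards the centre in either library. At sites without H3K27me3, H3K27ac covered 15.8% and 11.3% of bases near the centre in CHLA10 and 4.86% and 4.60% in A673. A673 H3K27me3 at 20 to 50 kb covered 11.8% and 16.1% of bases, against 2.96% and 3.14% for CHLA10.

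Developmental genes were frequent at the sites. Of 11893 protein-coding genes with a boundary within 1 kb of any of the 13779 sites, 389 (3.27%) were at the 529 sites and 278 (2.34%) at sites bivalent in both lines. A boundary lay within 1 kb of 379 of the 529 sites (71.6%), against 75.4% of all sites. A further 46 sites had only the boundary of a non-coding RNA gene nearby, 61 lay inside a gene, some at an internal start, and 43 near none. In the fixed lists, 19 of 79 homeobox genes outside the HOX clusters (24.1%) and 17 of 70 other developmental transcription factors (24.3%) were at the sites. The fewer sites bivalent in both lines held 18 and 15 genes of these lists, so their presence was not particular to the sites bivalent in A673. No gene of the lists of Polycomb subunits (27), of H3K27 demethylases, acetyltransferases and MLL subunits (18) or of housekeeping genes (26) was at them.

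**Figure D5:**
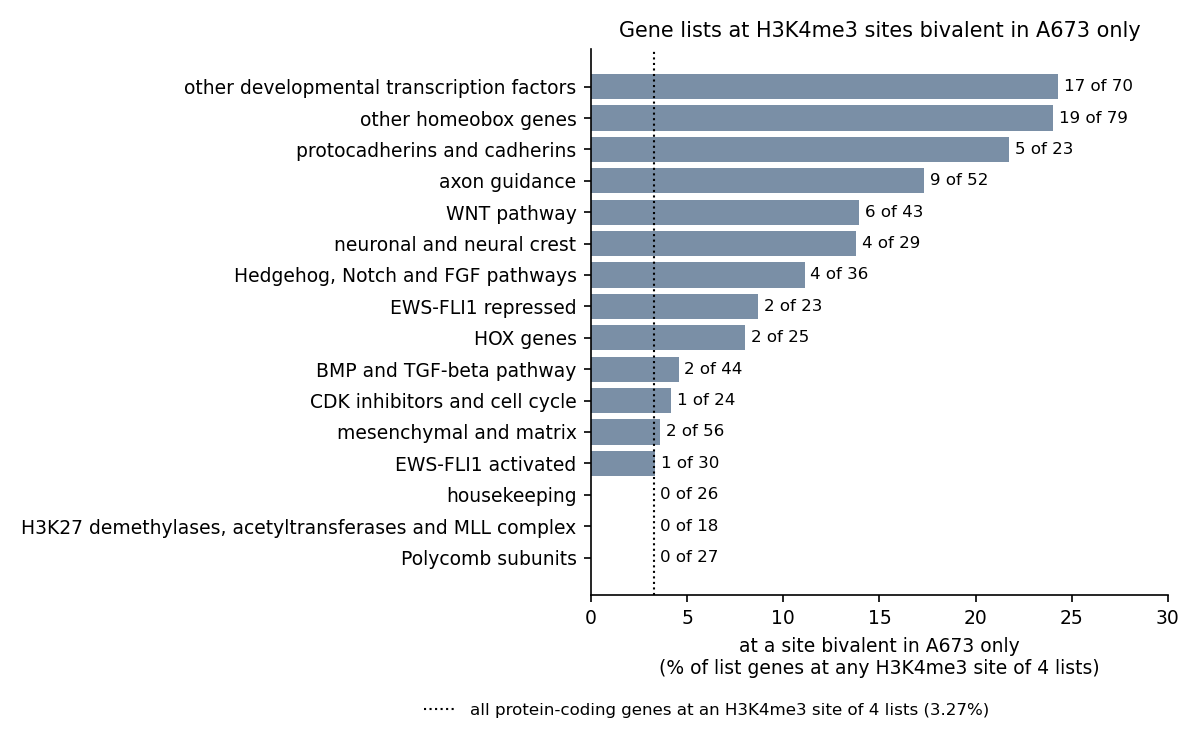
Share of the genes of 16 lists that were at a site bivalent in A673 only, among list genes at any H3K4me3 site of all 4 lists (%), with counts beside the bars. The dotted line is the share of all protein-coding genes, 3.27%; lists of developmental regulators lie above it and lists of chromatin and housekeeping genes at 0.

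Of the 36 genes of both lists at the sites, 7 (19.4%) had H3K27ac in at least 1 CHLA10 and no A673 library. This was found at 9.64% of the 529 sites and at 26.7% of all sites. Gain was found for 2 genes (5.56%), beside 3.02% of the 529 sites and 11.9% of all sites. Shares of genes stand here beside shares of sites, and the lengths of the sites were not matched. Among the homeobox genes, MEIS2 had gain, and POU3F3 and PRRX1 had H3K27ac in 1 CHLA10 library and no A673 library. CDX2, CUX2, DBX2, DLX4, EN1, HLX, MEOX2, MSX2, NKX2-1, NKX2-8, PBX3, POU3F2, POU4F1, POU4F2 and SATB1 were among the others. POU3F2, a neural POU factor, had H3K27ac in 1 library of each line, with fold enrichments of 4.23 in A673 and 6.70 in CHLA10. Among the other transcription factors, TBX3 had gain, and EBF1, FOXC2 and NR2F1 had H3K27ac in CHLA10 and not in A673. FOXC2, a forkhead factor of mesoderm, and NR2F1, an orphan nuclear receptor of neural crest, each had it in 1 CHLA10 library (fold enrichments 4.03 and 6.09). EBF2, a factor of neural and mesenchymal cells, had it in 1 A673 library (fold enrichment 4.53).

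Of 25 HOX genes at H3K4me3 sites, 2 were at the 529 (8%), beside 3.27% of all genes. Sites bivalent in both lines also held 2 HOX genes. Those at the 529 were HOXA11 and HOXA13 of the posterior HOXA cluster. Both sites lay under the same A673 H3K27me3 peaks, which were 32.8 kb long in replicate 1 and 42.9 kb in replicate 2 with fold enrichments of 8.18 and 8.32. Their nearest CHLA10 H3K27me3 peaks lay 15.9 and 29.6 kb away. HOXA11 (chromosome 7, 27183892 to 27185130) had H3K4me3 fold enrichments of 17.5 and 16.6 in A673 and of 22.4 and 13.9 in CHLA10, and no H3K27ac in any library. HOXA13 (27197588 to 27201348) had H3K27ac in A673 replicate 1 (fold enrichment 4.76), and in no CHLA10 library. In CHLA10 these genes thus had H3K4me3 with neither an H3K27me3 nor an H3K27ac call.

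The longest H3K27me3 peaks over unacetylated sites were those at PRKCQ, a protein kinase C gene, at 65.6 and 56.2 kb, and at NKX2-1, a homeobox gene of lung, thyroid and forebrain, at 56.0 and 69.7 kb. TBX20, a T-box gene of the heart, followed at 42.6 and 43.6 kb, then HOXA11. After these came TNFAIP3, an inhibitor of NF-kappaB signalling, GREB1L, UBE2E2 and the intestinal homeobox gene CDX2 (29.6 and 35.2 kb). They differed in what surrounded them in CHLA10. At PRKCQ a CHLA10 H3K27me3 peak began 0.520 kb from the site and at CDX2 2.31 kb, whereas at TBX20 the nearest was 514 kb away.

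Of 43 WNT pathway genes at H3K4me3 sites, 6 were at the 529 (14.0%): the ligands WNT2 and WNT4, RSPO3, which amplifies WNT signalling, the secreted antagonist SFRP2, and the intracellular regulators NKD1 and PRICKLE1. None of the 6 had H3K27ac in any library, as was the case at 83.7% of the 529 sites. WNT2 lay wholly under A673 H3K27me3 of 14.9 and 14.4 kb, and its nearest CHLA10 H3K27me3 peak was 3550 kb away. The Hedgehog, Notch and FGF list had 4 of 36, the Hedgehog binding proteins HHIP and BOC and the ligands FGF5 and FGF9. None of these had H3K27ac either. Beside these shares, 3.27% of all genes were at the 529 sites. Sites bivalent in both lines held 2 WNT pathway genes and 5 of the Hedgehog, Notch and FGF list.

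Of the axon guidance list, 9 of 52 genes (17.3%) were at the sites: the ephrins EFNA5 and EFNB2, the receptor EPHA7, the semaphorins SEMA5B and SEMA6A, the plexin PLXNC1, the netrins NTN1 and NTN4, and SLIT3. EFNA5 had H3K27ac in CHLA10 replicate 1 (fold enrichment 7.74). The cadherin list had 5 of 23, with CDH20 acetylated in CHLA10 replicate 1 (fold enrichment 7.46) and CDH6, CDH13, DCHS2 and FAT3 in no library. The neuronal and neural crest list had 4 of 29 (ADRA2A, GFRA1, MAP2 and SCN3B), without H3K27ac. The list of CDK inhibitors and cell cycle genes had 1 of 24 (4.17%), CDK6, a cyclin-dependent kinase of the G1 phase. CDK6 had H3K27ac in CHLA10 replicate 1 (fold enrichment 5.97). Of all genes, 3.27% were at the 529 sites. Sites bivalent in both lines held 8 axon guidance, 2 cadherin, 5 neuronal and neural crest genes and 1 gene of the cell cycle list. H3K27ac in at least 1 CHLA10 and no A673 library was found at 9.64% of the 529 sites and at 26.7% of all sites.

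EWS-FLI1 activated genes gave 1 of 30 at the sites (SOX2, 3.33%), repressed genes 2 of 23 (IGFBP3 and THBS1, 8.70%) and mesenchymal and matrix genes 2 of 56 (THBS1 and ZEB1, 3.57%), beside 3.27% of all genes. The first and the last of these shares were close to that of all genes, and the other rests on 2 genes. THBS1, the matrix protein thrombospondin, IGFBP3, a binding protein of insulin-like growth factors, and ZEB1, a factor of mesenchymal transition, had no H3K27ac in any library. ZEB1 (chromosome 10, 31317843 to 31322246) was 81.7% covered by H3K27me3 in the A673 library with the lower value, and 1404 kb separated it from CHLA10 H3K27me3.

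H3K4me1, a mark of primed and active enhancers that also flanks promoters, was called at more of the sites in A673. It was found at 121 sites (22.9%) in A673 replicate 1 and at 55 (10.4%) in replicate 2. In CHLA10 it was found at 8 (1.51%) in replicate 1 and 8 in replicate 2, with 2 sites in both. The mean was 16.6% ± 8.82 (SD, n = 2) in A673. Over all sites the shares were 32.2% and 17.1% in A673 and 4.72% and 5.08% in CHLA10, and the A673 lists held 104244 and 42268 H3K4me1 peaks against 22838 and 20467. H3K4me1 in both A673 and in neither CHLA10 library was found at 29 sites (5.48%), against 9.01% of all sites, and the reverse at 1 site, against 0.254%. With H3K4me1 lists of equal length, the 29 became 8. At the sites with gain, 7 of 16 (43.8%) had H3K4me1 in 1 A673 library, and 0 had it in both. H3K4me1 in at least 1 A673 library was found at 27.4% of the 529 sites and at 37.6% of all sites. SH3D19 and SLC12A2 had it in 1 CHLA10 library. In at least 1 CHLA10 library it was found at 2.65% of the 529 sites and at 8.76% of all sites.

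HOXD13 was rarely found at the sites. It had a peak at 4 of them in A673 (0.756%) and at none in CHLA10, which allows a share of up to 0.567%. Over all H3K4me3 sites the shares were 3.41% and 0.435%. The 4 sites were SLC35F1 (−log10 q 40.7), PRTG, an immunoglobulin family receptor (32.4), PURG (19.1) and a site 70.4 kb from BTRC (11.2). PURG was among the sites with gain, the BTRC site had H3K27ac in 1 A673 and both CHLA10 libraries, and SLC35F1 and PRTG had none. HOXD13 was read in 1 library per line of cells without the shNS label, so these overlaps compare differently labelled cells.

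The sites were spread over all 22 chromosomes. Their share of H3K4me3 sites was highest on chromosome 4 (46 of 552, 8.33%) and chromosome 13 (21 of 256, 8.20%) and lowest on chromosome 19 (8 of 977, 0.819%). On chromosome 13 the CHLA10 H3K27me3 lists held 166 and 245 peaks (0.432% and 0.599% of each list) and the A673 lists 769 and 874 (2.77% and 2.76%). The part of this in the count of sites was not tested. None of the sites with gain lay on chromosome 13, and without it 508 sites remained, with a difference in H3K27ac share of 4.43 percentage points. The sites lay apart from each other, with 518 different A673 H3K27me3 replicate 1 peaks over the 529 sites and 14 neighbouring pairs within 10 kb.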

How the data were processed

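The fold enrichment, −log10 q and score of each peak are the authors' values, as deposited. Per the submitters' processing notes, Bowtie2, MACS2, SEACR 1.2, bedtools and build hg38 were used; which caller made which list, the control and the filters are not given in the sources used here. No deposited peak had a q above 0.01. Each library had its own list. Overlaps (at least 1 bp), covered lengths and distances were computed in Python 3.11.15 with numpy 2.4.6, pandas 2.3.3 and scipy 1.17.1, figures with matplotlib 3.10.9, and the overlap code was tested on simulated data. Peak lengths depend on how each list was called. Genes within 1 kb were taken from RefSeq (GRCh38.p14); the promoter table held none on chromosome 8. Intervals and limits of a count of 0 (3 counts) cover counting error only.

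The sites and gene lists were chosen with earlier results of these data known. Genes were named by rule: the 15 sites with gain of highest rank, the 8 without H3K27ac under the longest A673 H3K27me3, up to 5 acetylated in A673 only or in all 4 libraries, up to 8 with HOXD13, the 5 widest and 5 narrowest, all HOX genes, up to 8 members per list and 3 sites at each threshold. DCAF5 and further list members were named after their values were seen. Alternatives covered overlap, peak strength, list length, site definition and each library left out. Some members of the lists are not reported here.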

Additional observations from a re-analysis of the deposited data

How the results depend on the processing

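The difference in H3K27ac share stayed above 0 in every alternative run, from 1.80 points (marks within 1 kb) to 5.66 points (no CHLA10 H3K27me3 within 5 kb) and, with each library left out, from 2.46 to 6.24 points. The main run gave 4.35 points, with an SD over libraries of 2.73 points, and 17.3 points over all H3K4me3 sites. The values of 1.80 and 2.46 points thus lay below that SD. With each library left out, the sites numbered 540 to 714, those with gain 16 to 41, with H3K27ac in A673 only 3 to 14, with H3K4me1 in A673 only 29 to 115, and the genes 394 to 506. H3K27ac in A673 only was found at 14 sites without A673 H3K27ac replicate 1, 11 without replicate 2 and 5 without A673 H3K27me3 replicate 1. H3K4me1 in A673 only was found at 50 sites without A673 H3K4me1 replicate 1, 115 without replicate 2 and 44 without A673 H3K27me3 replicate 1. No share over all sites is given with a library left out, so these counts stand without a background.

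Requiring A673 H3K27me3 over at least 50% of a site left 380 sites, 6 with gain and 1 with H3K27ac in A673 only. Over all H3K4me3 sites, gain was found at 11.9% and H3K27ac in A673 only at 1.55%. Keeping only the 50% of peaks with the lowest q per list, 100 sites and 92 genes remained. Gain was at 3 (3%, against 10.7% of all sites) and H3K27ac in A673 only at 1 (1%, against 1.78%). H3K4me1 in A673 only was at 3. Counting marks within 1 kb gave gain at 23 sites (4.35%, against 11.8% of all sites). H3K27ac in A673 only was then at 6 (1.13%, against 2.43%) and H3K4me1 in A673 only at 54. Equal H3K4me1 lists gave 8 sites with H3K4me1 in A673 only. No share over all sites is given for these H3K4me1 counts. Requiring 20% of the site under the mark left gain at 9 (1.70%, against 10.1%). With equal H3K27ac lists gain was at 13 sites (2.46%, against 12.4%). A peak in at least 1 library of a line was a call chosen after seeing the data, as was leaving out chromosome 13. This call gave 51 sites for CHLA10 (9.64%, against 26.7% of all sites) and 22 for A673 (4.16%, against 7.77%). The causes of these changes were not tested. No paired analysis was possible because no label ties the libraries of a replicate number across the lines, and with 2 libraries per line no test was run. Depth is unknown, so missing peaks carry no lower limit of detection.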
